A study of Macaca mulatta with 81 samples.

Results

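CCL3, CCL5, XCL1 and CCL20 are chemokines, small secreted proteins that direct the movement of leukocytes, and T cells are among the cells that make them. The 4 genes were taken from the array's gene table by symbol, out of 14133 genes with a probe set assigned to 1 symbol, and 11807 of those genes were tested, all 4 ligands included. A probe set is a group of short probes that read 1 transcript. Where a ligand had several probe sets, the one with the highest mean over all 81 arrays was used. CCL3 had 4 probe sets, CCL5 and XCL1 had 2 each, and CCL20 had 1.

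The arrays measured RNA of T cells sorted on CD3 from the blood of rhesus macaques after hematopoietic cell transplantation (HCT), which replaces the blood-forming system. Of the 81 arrays, 47 came from 27 transplanted animals and 34 from untransplanted healthy animals, and 11 animals gave both kinds. All groups of transplanted animals share the HCT procedure itself, so a difference from healthy controls holds its effect as well. Allogeneic grafts come from another animal and can cause graft-versus-host disease (GVHD), in which donor T cells attack the recipient.

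The allogeneic groups differed in the drugs given to prevent GVHD. FR104 blocks CD28, a costimulatory receptor of T cells, as an antibody fragment, and FR104.Siro adds Siro, read here as sirolimus, which inhibits the mTOR kinase (FR104.Siro.D14, n = 4; FR104.Siro.F, n = 4; FR104.D14, n = 3; FR104.F, n = 3). Belatacept, as the label Bela is read here, keeps CD28 from its ligands by binding them (Bela.Siro.D14, n = 3; Bela.Siro.D30, n = 3; Bela.Siro.F, n = 2; Bela.F, n = 3). The label Tac.Mtx is read as tacrolimus, which inhibits calcineurin, plus methotrexate (Tac.Mtx.D14, n = 3; Tac.Mtx.D30, n = 2; Tac.Mtx.F, n = 3). Siro was also given alone (Siro.F, n = 4), and NoRx.F recipients had no prophylaxis (n = 4). Autologous recipients received their own cells and no prophylaxis (Auto.D14, n = 3; Auto.D36, n = 3), and Healthy.Control had 34 arrays. The numbers after D give the nominal day, and F marks the final sample, whose day the labels do not give. In FR104.Siro.D14, however, 2 samples date from day 14, 1 from day 22 and 1 from day 34, and 1 Bela.Siro.D30 sample dates from day 29. Many transplanted animals were sampled at several times, so the groups of 1 prophylaxis are not independent of each other.

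CCL3 and CCL5 are CC chemokines made by activated and cytotoxic T cells and by other leukocytes. Both bind the receptor CCR1, and CCL5 also binds CCR3. XCL1 is made mainly by CD8 T cells and NK cells and binds XCR1 on the dendritic cells that present antigen to CD8 T cells. CCL20 binds CCR6 and is made by epithelium and by T cells of the interleukin 17 lineage, which carry CCR6 themselves. In GVHD, chemokines of these kinds are studied as signals that bring donor T cells into the target organs.

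All levels are deposited log2 signals, in which 1 unit is a doubling, and each change is a log2 difference from a limma model of group plus batch on the 81 arrays, given ± SE with a Benjamini-Hochberg adjusted p over the 11807 genes. A change was called at an adjusted p under 0.05. The arrays fell into 4 batches by their labels. Array medians ran from 5.12 to 5.31, and precision is limited by groups of 2 to 4 arrays outside the healthy controls. A signal for added control transcripts was above the highest healthy value (11.82) in 8 arrays. The group FR104.Siro.D14 gave 4 of them, and FR104.Siro.F, FR104.D14, Bela.Siro.F and Auto.D14 gave 1 each. The log2 difference between the 3' and 5' actin probe sets, which rises as RNA degrades, ran from 0.43 to 3.83 in healthy controls. It was below the lowest healthy value in all arrays of FR104.D14 (0.02 to 0.37), FR104.F (0.09 to 0.43) and Auto.D36 (-0.34 to -0.30). The same held for 3 of 4 FR104.Siro.D14 arrays (0.23 to 2.15), 2 of 4 FR104.Siro.F arrays (0.06 to 1.21) and 1 of 3 Auto.D14 arrays (0.29 to 2.26), and for no array of the other transplant groups. The part of RNA quality in the results on these groups was not tested. Of 8 T cell markers only CD5 and CD6 had a named probe set, so the CD3 sort could not be checked on the CD3 genes themselves. Because the arrays read RNA of a cell mixture, fewer cells of a type and less RNA per cell cannot be told apart.

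Monocyte and neutrophil RNA differed between groups. The mean log2 signal of 8 of 9 monocyte and neutrophil markers ranged from 8.39 to 8.97 in Bela.F, from 6.89 to 10.17 in Bela.Siro.F, from 5.88 to 6.94 in FR104.Siro.D14 and from 4.69 to 8.04 in healthy controls. Every Bela.F array was above every healthy array on this score, and the FR104.Siro.D14 arrays lay within the healthy range. All 8 markers passed the filter on low signals. The mean log2 signal of 4 of 6 NK cell markers had a lowest, median and highest healthy value of 7.89, 8.70 and 9.54. Monocytes also make CCL3, NK cells make CCL3, CCL5 and XCL1, and the part of such cells in the results below was not tested, except where a value is given.

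Over 40 comparisons, the 4 ligands gave 160 tests, and 4 were called. CCL3 accounted for 3 of these calls and CCL5 for 1, whereas XCL1 and CCL20 had none. The smallest adjusted p over the 40 comparisons was 0.00204 for CCL3, 0.0196 for CCL5, 0.0700 for XCL1 and 0.128 for CCL20. Comparisons of transplant groups with healthy controls share the 34 healthy arrays, those with NoRx.F share 4 arrays, and those with Auto.D14 share 3.

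CCL3 was lowest in animals given FR104 with Siro, and highest on average in Bela.F. The group means spanned 3.71 log2 units, close to the 3.72 units between the lowest and the highest healthy array. They ran in the order Bela.F (9.44 ± 0.13, SD, n = 3), Auto.D14 (9.27 ± 0.54, n = 3), Bela.Siro.F (9.15 ± 4.29, n = 2), Siro.F (9.02 ± 2.11, n = 4), FR104.D14 (8.79 ± 0.20, n = 3) and Tac.Mtx.F (8.66 ± 0.60, n = 3). Tac.Mtx.D30, NoRx.F, Auto.D36, FR104.F, Bela.Siro.D14 and Tac.Mtx.D14 followed, with means between 8.51 and 7.67. Below healthy controls (7.55 ± 0.85, n = 34) stood Bela.Siro.D30 (7.25 ± 0.90, n = 3), FR104.Siro.F (6.41 ± 0.88, n = 4) and FR104.Siro.D14 (5.73 ± 0.81, n = 4). No gap between neighbours in this order exceeded the larger of their SDs, which held for all 15 gaps of each of the 4 ligands.

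**Figure D1:**
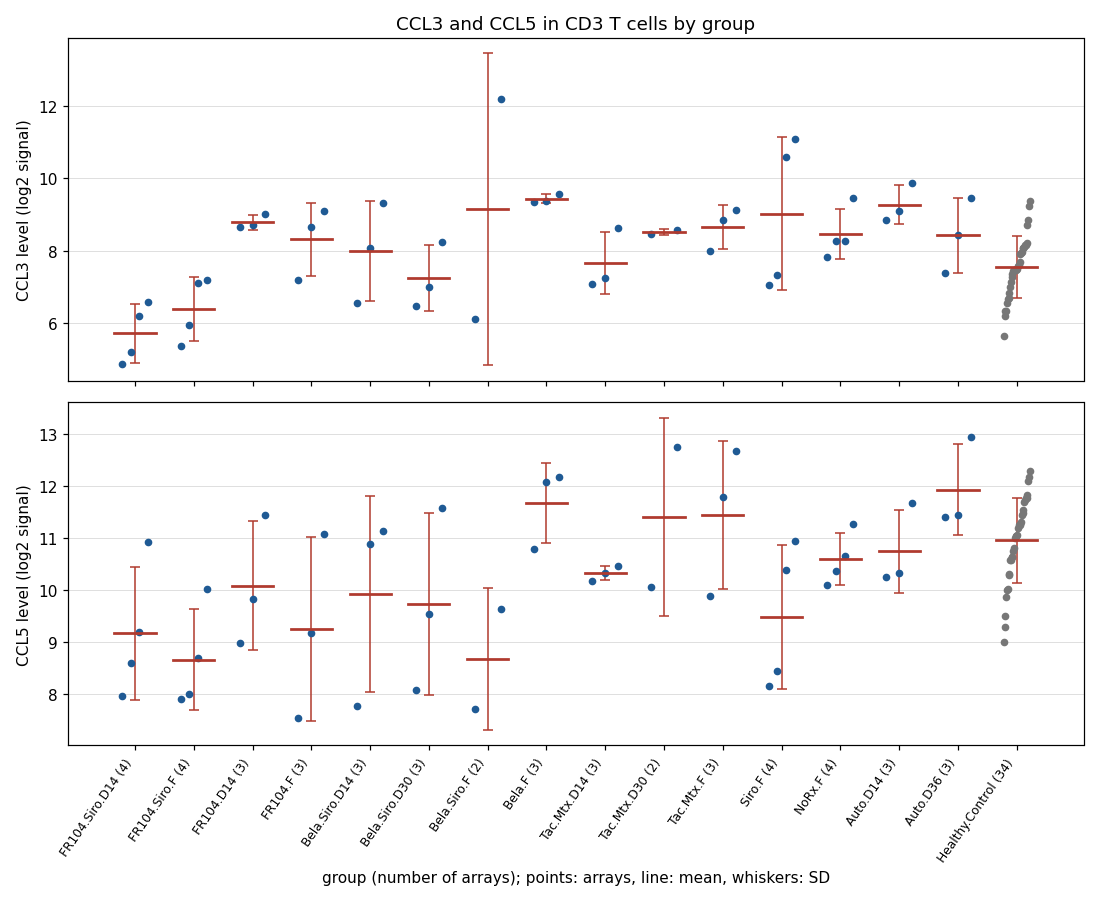
Level of CCL3 (upper panel) and CCL5 (lower panel) as log2 signal on the y axis, in the 16 groups on the x axis, with points for arrays, a red line for the mean and whiskers for the SD. The 4 FR104.Siro.D14 arrays lie between 4.89 and 6.60 for CCL3, below all arrays of FR104.D14 and Auto.D14, and the Bela.Siro.F arrays lie far apart at 6.11 and 12.19.

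The comparison of FR104.Siro with FR104 asks what Siro adds to CD28 blockade. CCL3 read 4.89, 5.22, 6.20 and 6.60 in FR104.Siro.D14 and 8.65, 8.70 and 9.02 in FR104.D14. Every FR104.Siro.D14 array was below every FR104.D14 array, with a gap of more than 2 log2 units. The log2 change was -3.06 ± 0.81, an 8.36-fold lower level (adjusted p 0.0173), and CCL3 was the only one of the 4 ligands called, where 4.45% of all tested genes were called and 8.5% were lower without overlap. XCL1 differed by 0.50 ± 0.76 (95% interval -1.02 to 2.03), CCL5 by -0.92 ± 0.80 (-2.52 to 0.68) and CCL20 by 0.26 ± 0.20 (-0.14 to 0.66) in the same comparison.

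This fall of CCL3 lost its call when FR104.Siro.D14 animal 26 (-2.78, adjusted p 0.0528), FR104.D14 animal 22 (-3.13, adjusted p 0.0901) or FR104.D14 animal 24 (-2.95, adjusted p 0.0751) was left out, and with only the 2 true day 14 arrays of FR104.Siro.D14 (-3.24, adjusted p 0.0939). A further probe set of CCL3 gave -3.72 (adjusted p 0.0303), and the other probe sets gave -0.60 (adjusted p 0.401) and -1.27 (adjusted p 0.196). The probe set with -0.60 was above the filter cutoff (4.65, the 40th percentile of all signals) in only 4 of 81 arrays. The monocyte and neutrophil score was 5.88 to 6.94 in FR104.Siro.D14 and 7.28 to 7.48 in FR104.D14, so it was lower too, and 0 of the 8 markers were called. The added control signal was 11.97 to 12.74 in FR104.Siro.D14 and 11.47 to 12.25 in FR104.D14, and the NK cell score was 7.65 to 8.24 in FR104.Siro.D14 and 7.33 to 8.85 in FR104.D14. The part of these signals in the result was not tested. Both groups lay in batch 4.

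CCL3 was lower still against autologous recipients. CCL3 read 4.89, 5.22, 6.20 and 6.60 in FR104.Siro.D14 and 8.84, 9.09 and 9.88 in Auto.D14. The groups did not overlap, and all Auto.D14 arrays were above the healthy mean of 7.55. The log2 change was -3.54 ± 0.81, an 11.6-fold lower level (adjusted p 0.00204), and CCL3 was the 1 ligand of 4 called. Over all tested genes, 15.3% were called and 11.7% were lower without overlap. It stayed called with each array left out (between -3.83 and -3.24, the largest adjusted p 0.0171), with only the day 14 arrays (-3.72, adjusted p 0.0136) and with each of its other 3 probe sets (-4.55, -1.80 and -1.35, adjusted p 0.00246, 0.0287 and 0.0182). The last of these probe sets was above the filter cutoff in only 4 arrays. The monocyte and neutrophil score overlapped between the groups, at 5.88 to 6.94 in FR104.Siro.D14 and 5.86 to 7.02 in Auto.D14. The NK cell score was 7.65 to 8.24 in FR104.Siro.D14 and 8.27 to 8.79 in Auto.D14, lower without overlap, and its part in the result was not tested.

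The same day against Auto.D14 gave smaller CCL3 values for the other allogeneic groups. The change was -0.48 ± 0.86 in FR104.D14 (95% interval -2.20 to 1.24), -1.26 ± 1.01 in Bela.Siro.D14 (-3.27 to 0.75) and -1.59 ± 1.01 in Tac.Mtx.D14 (-3.60 to 0.42), none called. The direct test between FR104.Siro.D14 and FR104.D14 is the one given above. Across these 4 comparisons with Auto.D14, 1 of 16 ligand tests was called, against 3.9% of all tests.

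Against healthy controls CCL3 in FR104.Siro.D14 stood at -1.82 ± 0.68 (adjusted p 0.0518), with 2 of its 4 arrays below the lowest of the 34 healthy arrays (5.64). In FR104.Siro.F, CCL3 read 5.39, 5.96, 7.10 and 7.19, all below the healthy mean, and changed by -1.14 ± 0.68 (adjusted p 0.333). Against FR104.F, which read 7.20, 8.66 and 9.10, the FR104.Siro.F arrays were lower without overlap, although 7.19 and 7.20 nearly touched. That change was -1.91 ± 0.81 (adjusted p 0.620), where 4.73% of all tested genes were lower without overlap and 0.00847% were called. Against NoRx.F, which read 7.83, 8.28, 8.29 and 9.45, FR104.Siro.F was also lower without overlap (-2.05 ± 0.93, adjusted p 0.113), as were 15.7% of all tested genes. The Siro effect on CCL3 in FR104 recipients differed by 1.16 ± 1.14 between the final and the early samples (95% interval -1.12 to 3.43), and 0 of 8 tests of differences between Siro effects were called (0 with an unadjusted p under 0.05), against 0.0127% of all tests.

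CCL3 rose in Bela.F against healthy controls. CCL3 read 9.36, 9.37 and 9.58 in Bela.F, and in healthy controls the lowest, median and highest arrays were 5.64, 7.51 and 9.37. The Bela.F arrays lay at and just above the top of the healthy range, 2 of 3 above it. The log2 change was 1.91 ± 0.68, a 3.75-fold higher level (adjusted p 0.0390), and 1 of 4 ligands was called, against 17.6% of all tested genes. The call was lost when any 1 of the 3 Bela.F arrays was left out (animal 46, 1.83, adjusted p 0.149; animal 47, 1.94, adjusted p 0.145; animal 57, 1.95, adjusted p 0.0847), within batch 3 alone (1.91, adjusted p 0.0645), with the mean of the probe sets (1.44, adjusted p 0.0698) and with each other probe set (1.89, 1.25 and 0.73, adjusted p 0.143, 0.0685 and 0.147). The probe set with 0.73 was above the filter cutoff in only 4 of 81 arrays. In the same comparison 4 of 8 monocyte and neutrophil markers rose and none fell (median 2.24, against 0.03 over all tested genes). Among them S100A9 rose by 6.38 ± 0.90 and S100A8 by 6.07 ± 0.86, both calcium-binding proteins abundant in neutrophils and monocytes, and their part in the CCL3 result was not tested.

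Siro.F and Bela.Siro.F were split for CCL3. In Siro.F, CCL3 read 11.07 (animal 16), 10.59 (animal 18), 7.35 (animal 17) and 7.06 (animal 13), so 2 arrays were above every healthy array and 2 were below the healthy mean. The high and the low pair each held 1 array of batch 1 and 1 of batch 2. The change against healthy controls was 1.46 ± 0.60 (adjusted p 0.0944), and it was called without animal 13 (2.21, adjusted p 0.0212), without animal 17 (2.01, adjusted p 0.0306) and with 2 of the other probe sets (1.53, adjusted p 0.000222, and 1.72, adjusted p 0.00378). The first of these 2 probe sets was above the filter cutoff in only 4 of 81 arrays. The remaining probe set also gave 1.72, without a call (adjusted p 0.144).

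In Bela.Siro.F, CCL3 read 12.19 in animal 42 and 6.11 in animal 38. Animal 42 had the highest CCL3 of all 81 arrays and animal 38 was below the healthy mean. At the earlier times CCL3 in animal 42 had read 6.57 (D14) and 6.49 (D30), so its final array was 5.61 above its day 14 array, whereas the final array of animal 38 was 1.98 below its day 14 array of 8.09. The monocyte and neutrophil score of animal 42 was 9.51 (D14), 8.92 (D30) and 10.17 (F), high at all 3 times. The group change was 1.62 ± 0.80 (adjusted p 0.310), and without animal 38 it was 4.65 (adjusted p 0.00219), a value of 1 array whose spread is borrowed from the rest of the fit.

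CCL5, a chemokine of memory and cytotoxic T cells, was lower than in healthy controls in 11 of 15 transplant groups by estimate, and called in FR104.Siro.F. Group means ran from 11.93 ± 0.87 (SD, n = 3) in Auto.D36, through 11.67 ± 0.78 in Bela.F, 11.45 ± 1.43 in Tac.Mtx.F and 11.40 ± 1.91 in Tac.Mtx.D30, to healthy controls at 10.95 ± 0.82 (n = 34). Auto.D14, NoRx.F, Tac.Mtx.D14, FR104.D14, Bela.Siro.D14, Bela.Siro.D30 and Siro.F followed between 10.74 and 9.48. The lowest were FR104.F (9.25 ± 1.77, n = 3), FR104.Siro.D14 (9.16 ± 1.28, n = 4), Bela.Siro.F (8.67 ± 1.37, n = 2) and FR104.Siro.F (8.65 ± 0.98, n = 4). Of the 47 transplant arrays, 12 were below the lowest healthy array and 3 above the highest.

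In FR104.Siro.F, CCL5 read 7.90, 8.0, 8.69 and 10.02, and the lowest, median and highest healthy arrays were 8.99, 11.05 and 12.29. The arrays of animals 26, 27 and 28 were below every healthy array and that of animal 29, at 10.02, was inside the healthy range. The log2 change was -2.30 ± 0.68, a 4.91-fold lower level (adjusted p 0.0196), and 1 of 4 ligands was called, against 10.1% of all tested genes. The other probe set of CCL5 gave -2.48 (adjusted p 0.00620). The call was lost without animal 26 (-2.08, adjusted p 0.0605), animal 27 (-2.05, adjusted p 0.0849) or animal 28 (-2.31, adjusted p 0.0523), and remained without animal 29 (-2.75, adjusted p 0.0121). The NK cell score read 7.52, 7.73, 7.84 and 8.12 in FR104.Siro.F, 3 of them below the lowest healthy array, and its part in the CCL5 result was not tested.

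In FR104.Siro.D14, CCL5 was lower than in healthy controls by a similar estimate. CCL5 read 7.95, 8.58, 9.19 and 10.93, of which 2 were below every healthy array. The value of 8.58 (animal 27) dates from day 34 and that of 10.93 (animal 29) from day 22. The change was -1.79 ± 0.68 (adjusted p 0.0544), and a fit with animal as random block called it (-1.85, adjusted p 0.0399), as it was with the other probe set (-2.16, adjusted p 0.0138) and without animal 29 (-2.38, adjusted p 0.0269). Estimates for Bela.Siro.F (-2.27 ± 0.80, adjusted p 0.107), FR104.F (-1.70 ± 0.74, adjusted p 0.140) and Siro.F (-1.48 ± 0.60, adjusted p 0.0868) were also below 0 without a call. FR104.F was called without animal 24 (-2.61, adjusted p 0.0353) and Siro.F without animal 16 (-1.97, adjusted p 0.0358).

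CCL5 was lower in Bela recipients who also had Siro, without a call. Bela.Siro.F arrays read 7.71 and 9.64 and Bela.F arrays 10.78, 12.08 and 12.17, with no overlap. The change was -3.0 ± 0.96 (adjusted p 0.158), where 12.3% of all tested genes were lower without overlap and 0.457% were called. FR104.Siro.F differed from FR104.F by -0.60 ± 0.80 (95% interval -2.20 to 1.01), and FR104.F arrays were spread over 7.52, 9.16 and 11.07. The difference between the Siro effects with FR104 and with Bela was 2.41 ± 1.25 (adjusted p 0.999). Over the 3 comparisons of added Siro, 1 of 12 ligand tests was called, against 1.64% of all tests, and 4 had an unadjusted p under 0.05.

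Prophylaxis against none gave no call for any of the 4 ligands (0 of 24 by limma, 3 with an unadjusted p under 0.05), against 9.32% of all tests. CCL5 in FR104.Siro.F was below NoRx.F without overlap, at 7.90, 8.0, 8.69 and 10.02 in FR104.Siro.F and 10.10, 10.37, 10.66 and 11.27 in NoRx.F, although 10.02 and 10.10 nearly touched. Of all tested genes, 15.7% were lower without overlap in this comparison. The CCL5 change was -1.94 ± 0.92 (adjusted p 0.135). These groups share no batch, and without the batch term the changes of CCL5 (-1.94, adjusted p 0.0335) and CCL3 (-2.05, adjusted p 0.0247) were both called. Between FR104.F and Bela.F the CCL5 difference was -2.44 ± 1.00 (adjusted p 0.439), and 0 of 8 ligand tests between the CD28 agents were called (2 with an unadjusted p under 0.05), against 0.0423% of all tests.

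**Figure D2:**
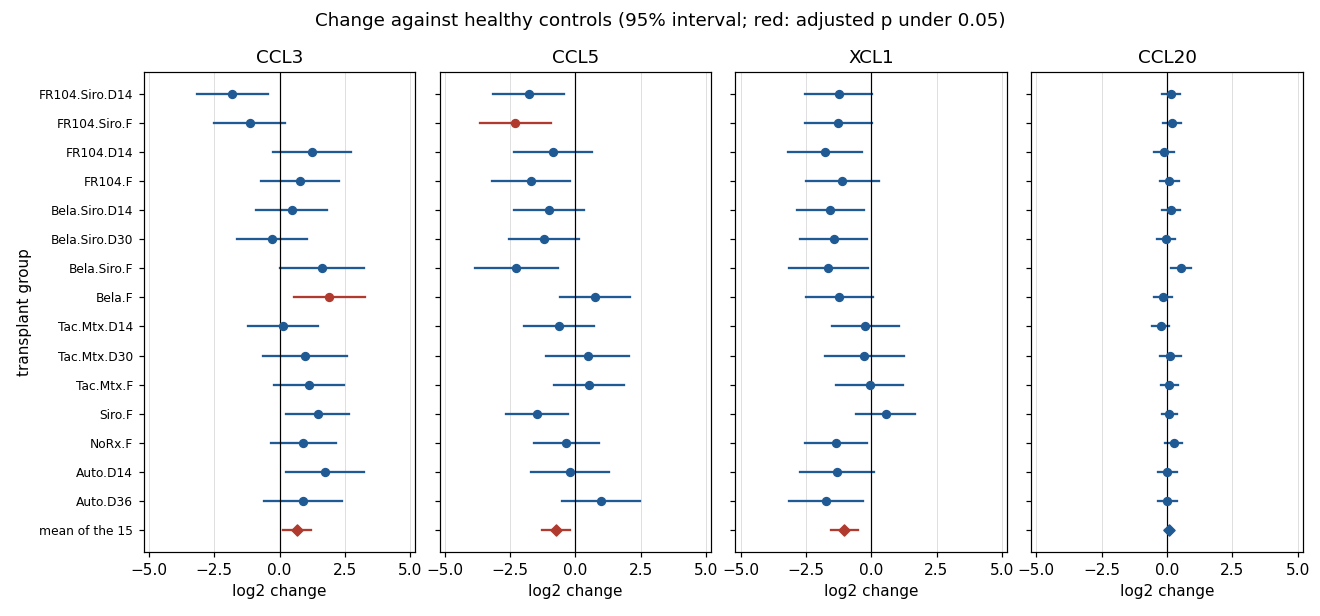
Log2 change of each ligand against healthy controls (x axis) in the 15 transplant groups (y axis) and, as a diamond, their mean, with bars for the 95% interval and red for an adjusted p under 0.05. CCL3 in Bela.F (1.91) and CCL5 in FR104.Siro.F (-2.30) are the red points among the single groups, and XCL1 lies left of 0 in 14 of 15 groups.

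XCL1 was below healthy controls by estimate in 14 of 15 transplant groups, with Siro.F the exception, and none of the 15 changes was called. Against healthy controls as a whole, 2 of 60 ligand tests were called, where 11% of all tests were, and 17 had an unadjusted p under 0.05, of which XCL1 gave 6. The healthy arrays ran from 5.25 to 9.23 with a median of 8.04 and a mean of 7.85 ± 0.90 (SD, n = 34). Only 5 of 47 transplant arrays were above the healthy mean, 2 of Siro.F and 1 each of Tac.Mtx.D14, Tac.Mtx.D30 and Tac.Mtx.F, and 1 was below the lowest healthy array. The groups with Tac.Mtx lay near healthy controls on average (7.81, 7.65 and 7.60), and the other groups apart from Siro.F had means between 6.76 and 6.11.

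NoRx.F gave the smallest adjusted p. XCL1 read 6.22, 6.51, 6.54 and 6.71 in NoRx.F, close together and inside the healthy range. The change was -1.34 ± 0.59 (adjusted p 0.0700), where 35.4% of all tested genes were called. It was called under a random animal block (-1.39, adjusted p 0.0455), with the other probe set (-1.90, adjusted p 0.0371) and with the mean of the probe sets (-1.62, adjusted p 0.0486). The NK cell score read 7.50, 7.53, 7.54 and 8.53 in NoRx.F, 3 of them below the lowest healthy array, and its part in the XCL1 result was not tested.

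Autologous recipients were also below healthy controls in XCL1 by estimate, without a call. XCL1 read 5.74, 5.80 and 6.85 in Auto.D36, all below the healthy mean, with a change of -1.73 ± 0.71 (adjusted p 0.0823), which was called under a random animal block (-1.79, adjusted p 0.0356). The actin difference was lower in every Auto.D36 array than in every healthy array, as given above, and the NK cell score of Auto.D36 (8.25 to 9.11) lay inside the healthy range. In Auto.D14 it read 5.31, 6.70 and 7.61, a change of -1.32 ± 0.71 (adjusted p 0.313). NoRx.F differed from Auto.D14 by -0.02 ± 0.92 (95% interval -1.86 to 1.82) and from Auto.D36 by 0.39 ± 0.92 (-1.45 to 2.23), which leaves room for differences of more than 1 log2 unit either way. Over all 4 ligands, 0 of 8 tests of NoRx.F against autologous recipients were called and 0 had an unadjusted p under 0.05, against 5.87% of all tests called.

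Siro.F was split for XCL1 in the same animals as for CCL3. XCL1 read 10.37 (animal 18), 10.34 (animal 16), 7.11 (animal 17) and 5.73 (animal 13), so 2 arrays were above every other array of the series and 2 were below the healthy mean. Against NoRx.F the change was 1.89 ± 0.72 (adjusted p 0.0705), where 12.1% of all tested genes were called. It was called under a random animal block (1.98, adjusted p 0.0407), with the other probe set (2.72, adjusted p 0.0341), without animal 13 (2.75, adjusted p 0.00577), without animal 17 (2.40, adjusted p 0.0437) and within batch 1 alone (2.14, adjusted p 0.0276). CCL5 in these animals read 10.38, 10.94, 8.44 and 8.15 in the same order of animals, so the pair high in CCL3 and XCL1 also had the higher CCL5. The monocyte and neutrophil score did not separate the pairs, at 7.64 and 6.45 in animals 18 and 16 and 7.13 and 7.68 in animals 17 and 13. The NK cell score was 7.95 and 9.0 in animals 18 and 16 and 7.87 and 7.67 in animals 17 and 13, higher in the high pair, and its part in the split was not tested.

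XCL1 in animal 19 of the Tac.Mtx groups was high at every time, at 8.64, 9.24 and 9.48 on D14, D30 and F. Animal 20 read 6.82, 5.96 and 7.08 at these times. The SD of 2.32 between the 2 Tac.Mtx.D30 arrays comes from these animals.

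**Figure D3:**
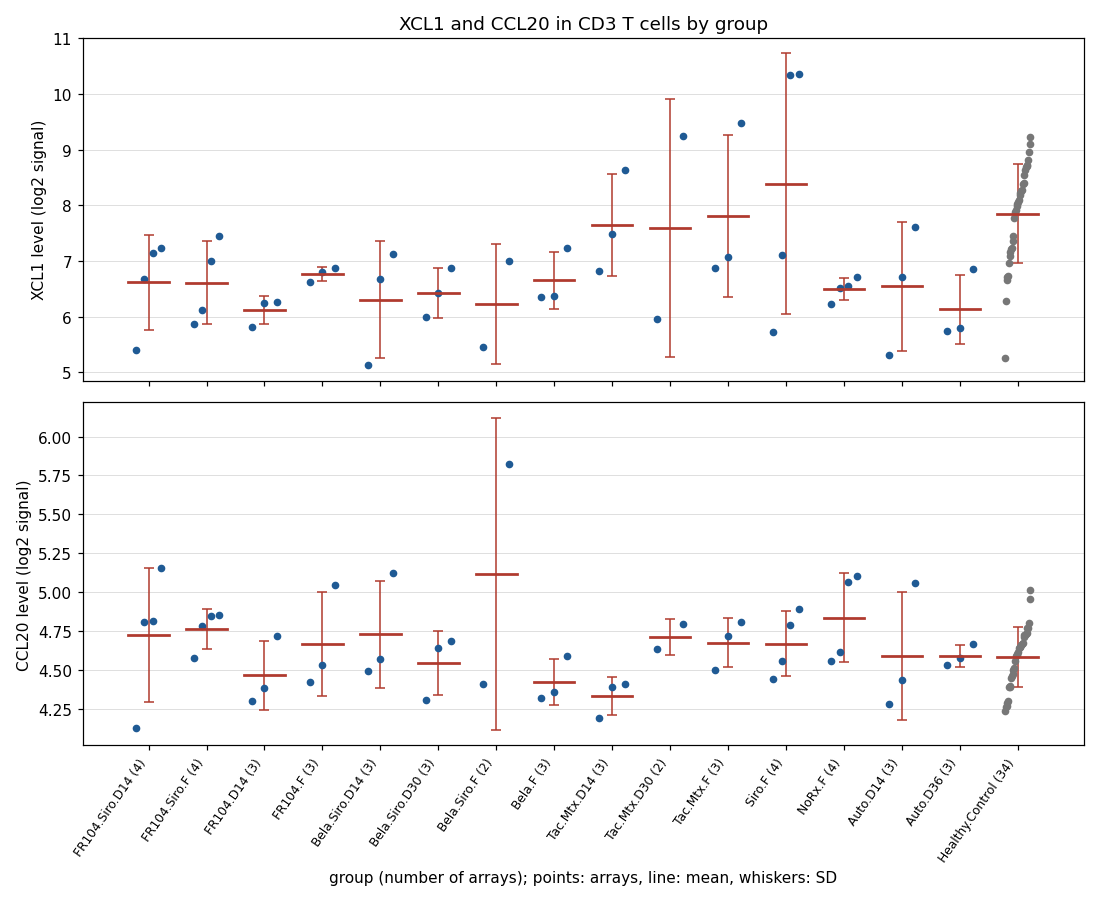
Level of XCL1 (upper panel) and CCL20 (lower panel) as log2 signal on the y axis, in the 16 groups on the x axis, with points for arrays, a red line for the mean and whiskers for the SD. For XCL1, 2 of the 4 Siro.F arrays stand at 10.34 and 10.37 and most transplant arrays lie below the healthy mean of 7.85, whereas CCL20 stays between 4.13 and 5.83 in all arrays.

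CCL20 was near the low end of the array's range. Its probe set was above the filter cutoff of 4.65 in 35 of 81 arrays, and group means spanned 0.79 log2 units, from 5.12 in Bela.Siro.F to 4.33 in Tac.Mtx.D14, with healthy controls at 4.58 ± 0.19 (SD, n = 34). A difference among low signals is compressed, so a small change here does not bound the change in transcript number. In Bela.Siro.F, CCL20 read 5.83 in animal 42 and 4.41 in animal 38, the first above every other array and the second within the healthy range of 4.24 to 5.02.

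The CCL20 change in Bela.Siro.F was 0.54 ± 0.20 against healthy controls (adjusted p 0.128) and 0.70 ± 0.24 against Bela.F (adjusted p 0.205), in which CCL20 read 4.32, 4.36 and 4.59. Without animal 38 these became 1.24 (adjusted p 0.00112) and 1.40 (adjusted p 0.00147), values of the array of animal 42 alone, which also had the highest monocyte and neutrophil score of its group. In the other 14 groups the change against healthy controls lay between -0.25 and 0.25.

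As a comparison added after the single groups had been seen, the equally weighted mean of the 15 transplant groups was set against healthy controls. XCL1 was lower (-1.04 ± 0.26, a 2.06-fold lower level, adjusted p 0.000771), CCL5 changed by -0.74 ± 0.27 (adjusted p 0.0242), CCL3 by 0.67 ± 0.27 (adjusted p 0.0454) and CCL20 by 0.07 ± 0.07 (adjusted p 0.416). Thus 3 of 4 ligands were called, where 39.2% of all tested genes were called, 21.4% higher and 17.8% lower. The XCL1 change stayed called with each of the 47 transplant arrays left out (between -1.15 and -0.93), under a random animal block (adjusted p 0.000332) and without the Siro.F group. CCL5 lost its call without animal 20 of Tac.Mtx.D30 (-0.65, adjusted p 0.0508) and without the Siro.F group (-0.69, adjusted p 0.0520).

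The average CCL3 change lost its call without any 1 of 22 of the 47 transplant arrays (adjusted p 0.0501 to 0.128), at least 1 from each of the 15 groups. It was 0.46 (adjusted p 0.128) without animal 42 of Bela.Siro.F, 0.61 (adjusted p 0.0900) without the Siro.F group and 0.65 (adjusted p 0.0663) under a random animal block. In this comparison 5 of 8 monocyte and neutrophil markers rose and none fell (median 1.23), and 2 of 4 NK cell markers fell and none rose (median -0.36), against a median of 0.02 over all tested genes. Of the markers of other blood cells, 1 of 3 B cell genes fell, and none of 6 platelet and 3 erythroid genes was called. NK cells make XCL1 and CCL5 as well, and the part of these cells in the results was not tested.

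The 11 animals with both a healthy array and transplant arrays gave 17 differences from the healthy array of the same animal number. The labels do not date the healthy arrays. After an allogeneic graft the T cells can come from the donor, so such a difference need not compare cells of 1 individual. XCL1 was lower than in the healthy array of the same animal in 15 of 17 arrays. Its lowest, median and highest differences were -2.86, -1.51 and 2.57 log2 units. The 2 higher arrays were Siro.F animals 16 (2.57) and 18 (2.34). CCL5 was lower in 11 of 17 (-4.14, -0.15 and 1.39), CCL3 was lower in 8 and higher in 9 (-2.70, 1.15 and 4.95), and CCL20 was lower in 9 and higher in 8 (-0.57, -0.06 and 0.77). Several of these arrays come from the same animal, and all of these arrays are part of the comparisons above. The pairing of the 3 Siro.F animals is uncertain. Over all tested genes their deviations correlated at -0.19 to -0.12 with those of their own healthy arrays, and 0 of 3 matched their own best. These animals gave the highest differences of XCL1, CCL5 and CCL3 and the lowest of CCL5.

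Within these animals the spread of CCL3 was wide. Siro.F animals 18 and 16 were 4.95 and 3.70 above their own healthy arrays, and Siro.F animal 13 differed by -2.30 from its own. The pairing of these 3 animals is uncertain, as given above. NoRx.F animal 53 was 2.90 above and Bela.F animal 47 was 2.66 above. FR104.Siro animal 28 was lower at both times (-1.88 at D14 and -2.70 at F). The same animal was lower in CCL5 (-2.07 and -2.56) and in XCL1 (-1.49 and -2.86).

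**Figure D4:**
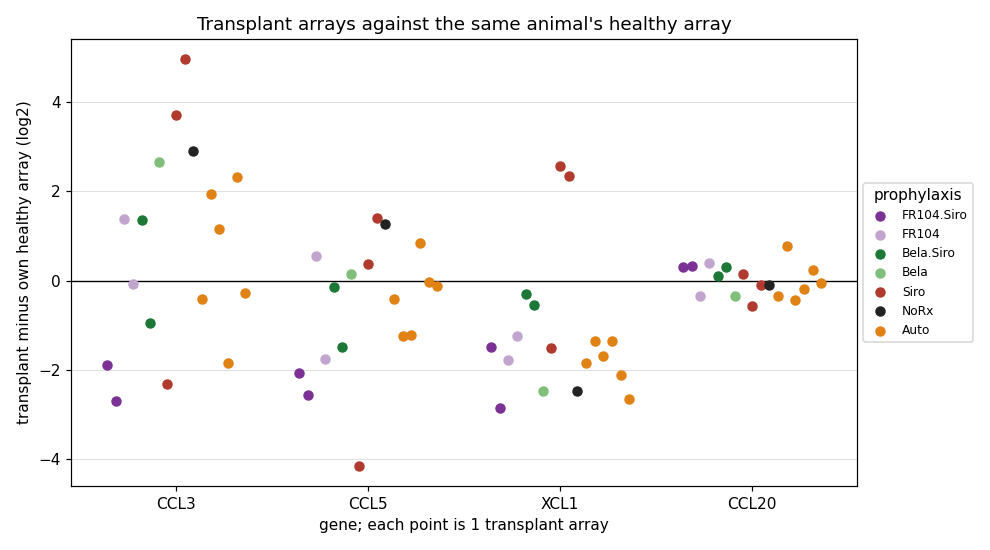
Difference in log2 level between each of 17 transplant arrays and the healthy array of the same animal (y axis) for the 4 ligands (x axis), coloured by prophylaxis. For XCL1, 15 points lie below 0 and the 2 above are Siro.F animals, whereas CCL3 points run from -2.70 to 4.95. The pairing of the 3 Siro.F animals with their healthy arrays is uncertain.

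Later against earlier samples of the same prophylaxis gave 0 of 24 calls by limma, and 0 had an unadjusted p under 0.05, against 0.689% of all tests called. CCL5 was higher on day 36 than on day 14 in all 3 autologous animals, by 1.20, 1.27 and 1.08 log2 units, with a change of 1.18 ± 0.86 (95% interval -0.53 to 2.90). XCL1 was higher in the final than in the day 14 array of all 3 FR104 animals (0.53, 0.80 and 0.63), with a change of 0.65 ± 0.82 (-0.98 to 2.29). CCL20 was higher in the final array of all 3 Tac.Mtx animals (0.52, 0.11 and 0.40), with a change of 0.34 ± 0.21 (-0.08 to 0.77). A fit within animals, with the animal as a fixed effect over the 34 arrays of 16 animals sampled at several times, was added after these values had been seen. It gave 1.18 ± 0.48 for CCL5 in autologous animals (adjusted p 0.249), 0.65 ± 0.34 for XCL1 in FR104 (adjusted p 0.9997) and 0.34 ± 0.24 for CCL20 in Tac.Mtx (adjusted p 0.801). By this fit 0 of 24 tests were called and 2 had an unadjusted p under 0.05, both for CCL5 (autologous and Tac.Mtx).

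Of the receptors, CCR1, CCR3 and CCR6 were tested, and XCR1 was too low to be tested. CCR3, an eosinophil and T cell receptor that binds CCL5, fell in both comparisons in which CCL3 fell in FR104.Siro.D14, with changes of -2.57 ± 0.61 against FR104.D14 (adjusted p 0.00896) and -2.59 ± 0.61 against Auto.D14 (adjusted p 0.00274). Its level was 5.31 ± 0.34 in FR104.Siro.D14 (SD, n = 4), against 7.89 ± 0.80 in FR104.D14 and 7.90 ± 0.96 in Auto.D14 (n = 3 each). CCR3 also rose where CCL3 rose, by 2.06 ± 0.51 in Bela.F against healthy controls (adjusted p 0.00249). Of 15 tested chemokine receptors, none rose and 3 fell in FR104.Siro.D14 against FR104.D14, and 1 rose and 5 fell against Auto.D14. Of all tested genes, 4.45% were called in the first and 15.3% in the second of these comparisons. CCRL2, an atypical receptor that binds chemerin, fell in both (-1.64 ± 0.44, adjusted p 0.0193, and -1.72 ± 0.44, adjusted p 0.00550), and CCR2, the receptor by which CCL2 draws monocytes, fell in both as well (-1.52 ± 0.47, adjusted p 0.0469, and -1.32 ± 0.47, adjusted p 0.0463). CCR1, the shared receptor of CCL3 and CCL5, was called in none of the 40 comparisons, its smallest adjusted p being 0.114 in Bela.Siro.F against healthy controls (0.38 ± 0.14).

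CCR6, the receptor of CCL20, fell in Bela.F against healthy controls (-0.87 ± 0.29, adjusted p 0.0251) and rose in Bela.Siro.F against Bela.F (1.61 ± 0.41, adjusted p 0.0476). Its level was 7.53 ± 1.13 in Bela.Siro.F (SD, n = 2) and 5.92 ± 0.18 in Bela.F (n = 3). In this last comparison 4 of 8 genes of the interleukin 17 program, CCR6 among them, rose and none fell, where 0.457% of all tested genes were called, with a median of 1.64 against -0.05 over all tested genes. IL17A, the defining cytokine of that lineage, rose by 2.11 ± 0.23, IL22, a cytokine that acts on epithelium, by 1.75 ± 0.21, and IL26, another cytokine of these cells, by 3.21 ± 0.55. These rises stand beside the uncalled CCL20 change of 0.70 ± 0.24. Bela.Siro.F has only 2 arrays, which were split for CCL20 (5.83 in animal 42 and 4.41 in animal 38). The SEs draw on the spread of all 81 arrays. The IL17A, IL22 and IL26 levels of the 2 animals are not given here, so a rise in both animals is not shown.

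Among 21 tested of 39 other chemokine ligands, none was called in FR104.Siro.D14 against FR104.D14 (median 0.10, against 0.01 over all tested genes), where CCL3 itself fell. Of all tested genes 4.45% were called in that comparison. Such a share gives few calls among 21 genes, so the count does not set CCL3 apart. Against Auto.D14, 3 rose and 2 fell, where 15.3% of all tested genes were called. CCL23, a CC chemokine of myeloid cells, rose there (3.31 ± 0.98, adjusted p 0.0159), in Bela.F against healthy controls (4.96 ± 0.83, adjusted p 6.99e-06) and in FR104.Siro.F against healthy controls (4.33 ± 0.83, adjusted p 0.000318). CCL4L1, a close relative of CCL3, fell there (-3.02 ± 0.78, adjusted p 0.00568). Against healthy controls it changed by -2.45 ± 0.66 in FR104.Siro.D14 (adjusted p 0.00765) and by -2.58 ± 0.66 in FR104.Siro.F (adjusted p 0.00630), where CCL5 also fell. CCL4L1 averaged 7.35 ± 1.09 in FR104.Siro.D14 and 7.22 ± 0.43 in FR104.Siro.F (SD, n = 4 each), and 9.81 ± 0.83 in healthy controls (n = 34). In the RefSeq rhesus annotation CCL3, CCL5 and CCL4L1 lie on 1 chromosome, with 7 protein-coding genes between CCL3 and CCL5, 66 between CCL3 and CCL4L1 and 58 between CCL5 and CCL4L1, and XCL1 and CCL20 lie on other chromosomes.

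Some cytotoxic genes fell, and none rose, in the 3 comparisons of single groups in which CCL3 or CCL5 fell. In FR104.Siro.D14, 3 of 12 fell against FR104.D14 (median -1.09), where 4.45% of all tested genes were called, and 5 of 12 fell against Auto.D14 (median -1.40), where 15.3% were. GZMB, a granule protease that triggers death of target cells, fell in both (-1.83 ± 0.53, adjusted p 0.0336, and -2.20 ± 0.53, adjusted p 0.00355). In FR104.Siro.F against healthy controls 6 of 12 fell (median -1.12, against -0.02 over all tested genes), where 10.1% were called. GZMH, another granule protease, fell there (-3.39 ± 0.62, adjusted p 0.000154), as did TBX21, the transcription factor of type 1 T cells (-1.95 ± 0.45, adjusted p 0.00223). The CD8A and CD8B genes were not called in any of these 3 comparisons, and CD4 rose by 0.63 ± 0.20 in FR104.Siro.F (adjusted p 0.0319).

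Of 12 tested regulators of NF-kB and of chemokine genes, 2 rose and 3 fell in FR104.Siro.F against healthy controls, with a median of -0.13, where 10.1% of all tested genes were called. KLF13, a transcription factor known to drive CCL5 late after T cell activation, fell (-0.33 ± 0.08, adjusted p 0.00465). KLF13 also fell in NoRx.F (-0.31 ± 0.07, adjusted p 0.000439), in which CCL5 changed by -0.35 ± 0.62 without a call, and in Siro.F (-0.49 ± 0.07, adjusted p 1.02e-06). NFKB1, which encodes an NF-kB subunit, rose in FR104.Siro.F (0.80 ± 0.16, adjusted p 0.000752). In FR104.Siro.D14, 1 of 12 regulators fell and none rose against either FR104.D14 (4.45% of all tested genes called) or Auto.D14 (15.3%). Of 11 tested activation genes, 3 rose and 1 fell in FR104.Siro.F (10.1% of all tested genes called), led by TNFRSF4, a costimulatory receptor, at 1.22 ± 0.26 (adjusted p 0.00128). Against Auto.D14 (15.3% called), 1 rose and 2 fell in FR104.Siro.D14, among them IFNG, the type 1 cytokine interferon gamma (-2.60 ± 0.63, adjusted p 0.00359), and against FR104.D14 none was called. In Bela.F against healthy controls (17.6% called) 3 rose and none fell, and IFNG changed by 1.95 ± 0.53 (adjusted p 0.00579).

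The genes whose 16 group means ran most like those of each ligand were GOPC (Pearson's r 0.91), MIDN (0.90) and TASL (0.88) for CCL3, SEPTIN7 (0.96), CPD (0.93) and DOCK5 (0.93) for CCL5, RPAP2 (0.88), ADA2 (0.85) and SPECC1L (0.83) for XCL1, and LINGO4 (0.83), NEK11 (0.77) and IL22 (0.71) for CCL20. The ligands themselves and genes whose symbol begins with LOC were left out of this ranking. The genes named are the highest of the remaining tested genes over 16 points that share arrays, animals and batches. Some move little, with SEPTIN7 means spanning 0.51 log2 units against 3.27 for CCL5. The ligands were less alike among themselves. Over the 16 group means Pearson's r was 0.43 for CCL3 with CCL5, 0.05 for CCL3 with XCL1, 0.18 for CCL5 with XCL1 and -0.46 for CCL5 with CCL20, as a description.

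The probe sets of a ligand did not read the gene equally. Over the 16 group means those not used correlated with the one used at 0.97, 0.90 and 0.78 for CCL3, 0.98 for CCL5 and 0.94 for XCL1. The probe sets used for CCL3, CCL5 and XCL1 carry the suffix by which the manufacturer marks sets whose probes match more than 1 transcript. XCL2 and CCL3L1, near-identical relatives of XCL1 and CCL3 in humans, have no named probe set here, so the values of XCL1 and CCL3 may hold signal of such copies.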

How the data were processed

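RNA of CD3-sorted T cells was measured on 81 Affymetrix rhesus arrays, and the deposited values are log2 signals that the authors made with RMA (background correction, quantile normalization and summary per probe set) in affy, per the submitters' processing notes, and versions are not given in the sources used here. The share of probe sets with a between-batch F test p above 0.95 among healthy arrays was 61.02%, where 5% arises if batches do not differ. The healthy arrays thus differed less between batches than unadjusted arrays without a batch effect would. No batch adjustment is stated, and whether the values were adjusted before deposit was not tested. Array medians ran from 5.12 to 5.31.

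Of 52865 probe sets, 24969 were assigned 1 gene, 361 several and 27535 none by the platform's gene table, and 24629 gene IDs matched the current gene table. The probe set with the highest mean stood for each of 14133 genes, and genes above the 40th percentile (4.65) in at least 2 arrays were tested (11807). limma 3.58.1 in R 4.3.3 fitted group and 4 batches to all arrays (62 residual df), with a trended eBayes prior and Benjamini-Hochberg adjustment within each of 40 comparisons, two-sided, at 0.05. The equally weighted mean of 15 transplant groups was a comparison added later. Comparisons share healthy, NoRx.F or Auto.D14 arrays. Arrays of a group came from different animals. On simulated data (11807 genes), 48 of 50 genes shifted by 1 log2 unit were recovered for Bela.F against healthy controls, 44 for FR104.Siro.D14 against FR104.D14, and 41 each for FR104.Siro.F against healthy controls and Bela.Siro.F against Bela.F. The shifted genes were drawn at random from all tested genes, with noise independent between arrays. These rates do not hold for the ligands, whose changes have large SEs. CCL3 in FR104.Siro.D14 against healthy controls, at -1.82 ± 0.68, was not called.

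Animal numbers pair arrays: over time, same-animal deviations correlated at 0.21 to 0.66, each array best with its own animal, as they did for autologous against the same animals' healthy arrays (0.18 to 0.33), whereas Siro.F against such arrays gave -0.19 to -0.12. The animal was therefore an alternative random block (statmod 1.5.0, correlation 0.194). Other alternatives changed the batch term, filter, probe sets, normalization, prior, arrays and samples in the fit.

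Named genes were the 4 ligands, their receptors, the 3 genes most like each ligand, and up to 3 genes with the smallest adjusted p per list (other chemokine ligands, chemokine receptors, regulators, activation, cytotoxic, interleukin 17 program, cell markers). The ligands and symbols beginning with LOC were passed over in the choice of the genes most like each ligand. The members and lists were chosen with earlier results of these data known. RefSeq's T2T-MMU8v2.0 annotation gave gene order only, and no sequence was used here.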

Additional observations from a re-analysis of the deposited data

Results flagged for a closer look

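Differences of CCL3 between groups were the results marked for a closer look, because each is a tested difference between samples taken at the same nominal time under different transplant or prophylaxis. CCL3 in FR104.Siro.D14 minus FR104.D14 was -3.06 (adjusted p 0.0173, limma), lower in 4 of 4 FR104.Siro.D14 arrays than in any FR104.D14 array. CCL3 in FR104.Siro.D14 minus Auto.D14 was -3.54 (adjusted p 0.00204, limma), lower in 4 of 4 arrays than in any Auto.D14 array. Both rest on the same 4 arrays, all with added control signals above every healthy array, and the part of that signal was not tested. In 16 sets of 4 to 10 arrays, no array stood far enough from the others to be marked.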

How the results depend on the processing

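Counts of called ligand tests were small, and single arrays moved several of them. Against healthy controls the count of 2 of 60 became 10 with no batch term, 5 with animal as replicate block and 4 with the mean of probe sets. Prophylaxis against none went to 2 with no batch term and 1 with animal as replicate block, in place of 0. The average of all transplant groups kept 1 of its 3 calls without Siro.F. The replicate block added calls for CCL5 in FR104.Siro.D14 (adjusted p 0.0399), XCL1 in NoRx.F (0.0455) and XCL1 in Auto.D36 (0.0356), each against healthy controls, and for XCL1 in Siro.F against NoRx.F (0.0407). It ended the call of CCL3 in the average (0.0663) and changed no other call of a ligand.

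With each array left out in turn, the counts ran from 1 to 6 against healthy controls, 0 to 2 for prophylaxis against none, 0 to 2 for added Siro, 0 to 1 between CD28 agents and 1 to 3 for the average of all transplant groups. They stayed at 1 at day 14 against autologous recipients and at 0 for NoRx.F against autologous recipients, later against earlier samples and differences between Siro effects. Single arrays decided these moves. The count against healthy controls was 1 without any Bela.F array or without FR104.Siro.F animal 26, 27 or 28. It was 4 without Bela.Siro.D14 animal 42, Bela.Siro.F animal 42, FR104.F animal 24 or any Siro.F array, and 6 without Bela.Siro.F animal 38, which leaves 1 array. Added Siro had 0 calls without FR104.D14 animal 22 or 24 or FR104.Siro.D14 animal 26. Of 1080 single ligand values with an array left out, 1035 stayed on their side of the threshold, 32 lost the call and 13 gained it. No called value changed sign, and sign changes of uncalled values were not counted.

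Quantile normalization once more and eBayes without a trend changed no call of the 164 single values each, and testing with no filter ended 1, that of CCL3 in the average (0.67, adjusted p 0.0517). Fitting only the groups compared added 6 calls and ended none, and where they share no batch, so that the batch term went too, it added 4 and ended none. The fit within animals changed no call of later against earlier samples. Values without the arrays of high added control signal could not be had for FR104.Siro.D14, where no array is left. The causes of these changes were not tested. Signals near the filter cutoff limit CCL20 most, with 35 of 81 arrays above it.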
